A study of Citrus reticulata and Citrus x clementina and Citrus x paradisi with 16 samples.

Results

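The loci described here lie around the clementine region to which the switch between single-embryo and many-embryo seeds has been mapped in citrus. They were taken by position alone, as every locus of the mandarin table that named a reference gene and lay wholly between 24750000 and 26250000 on scaffold_1 of the clementine genome, on either strand. This gave 152 annotated loci out of 20373 loci in the table, of which 15918 named a reference gene. The 152 loci named 166 reference genes, 74 loci were on the plus strand and 78 on the minus strand, and 34 further loci of the window named no reference gene. The window, of 1.5 Mb, is wider than the mapped segment that the study cites. The limits of that segment on scaffold_1 were not determined, so a locus of the window need not lie in it. The calls and counts below refer to the whole window.

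Nucellar embryony is a form of apomixis in which embryos arise directly from cells of the nucellus, the maternal tissue around the embryo sac, so that a seed carries clones of the mother beside the sexual embryo. In citrus the trait is inherited largely as a dominant factor of 1 chromosomal region. Later genetic work tied it to an RWP-RK gene, a member of a family of transcription factors that act in egg cells and early embryos, but no locus described here carried such a description in the sources used. An ankyrin repeat gene also lies in the region, and ankyrin repeats are protein motifs that bind other proteins and occur in proteins of many functions.

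The libraries were made from ovule mRNA of the polyembryonic 'Huagan No.2' Ponkan mandarin (PK, Citrus reticulata) and the monoembryonic 'Nour' clementine (CM, Citrus clementina). Each cultivar was sampled 3 days after flowering, named pre-NEI because nucellar embryo initiation (NEI) cells had not yet been seen in PK, and 7 days after flowering, named NEI because they then had. In CM the names mark the matching days only. There were 2 libraries for each of the 4 groups, which are 8 of the 16 libraries of the series, and the other 8, from grapefruit and pummelo, were not analysed here because their reads had been placed on another genome. All trees were pollinated by hand with trifoliate orange, the ovules of a library were pooled over several trees of 1 cultivar, and the replicates came from consecutive years. Because each kind of embryony was represented by 1 cultivar, embryony and every other difference between Ponkan and clementine cannot be told apart. PK reads were also placed on the genome of CM, and sequence differences between the cultivars may have lowered PK counts at some loci, which was not tested.

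The 8 libraries held 17.854 to 24.913 megacounts in loci, where a count is 1 sequenced read or fragment assigned to a locus. Levels are given as normalised CPM, that is counts per megacount of the library after TMM scaling of the library totals, and are divided by transcript length in kb wherever loci are compared with each other. A library of CM at NEI, replicate 1, stood apart, with a TMM factor of 0.756 against 0.913 to 1.19 in the others and with 9.83% of its counts in its 10 largest loci against 2.87 to 6.45%. It was at least 3 times higher than every other library at 228 tested loci of the whole table (1.22%), against 5 to 77 loci for each other library. The files carried no gene descriptions, so the ovule label could not be checked against ovule marker genes. The level of a Rubisco small subunit locus, a gene of green tissue, ran from 18.7 to 308 CPM over the libraries, and the part of green tissue in the results was not tested.

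The region held loci of very unequal activity. Their levels, averaged over the 8 libraries, ran from 0.375 to 311 CPM per kb with a median of 13.0, against a median of 10.6 for all annotated loci of the table. A level of at least 1 CPM per kb was reached by 134 of the 152 loci, at least 10 by 88 and at least 100 by 10. A count was present in every library at 143 loci. The filter on low values, 1 CPM in at least 2 libraries, was also passed by 143, and the other 9 were not tested. Levels varied without a trend from end to end, as the median per 250 kb was 11.5, 16.5, 8.34, 13.9, 16.1 and 16.1 CPM per kb in order along the scaffold.

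**Figure D1:**
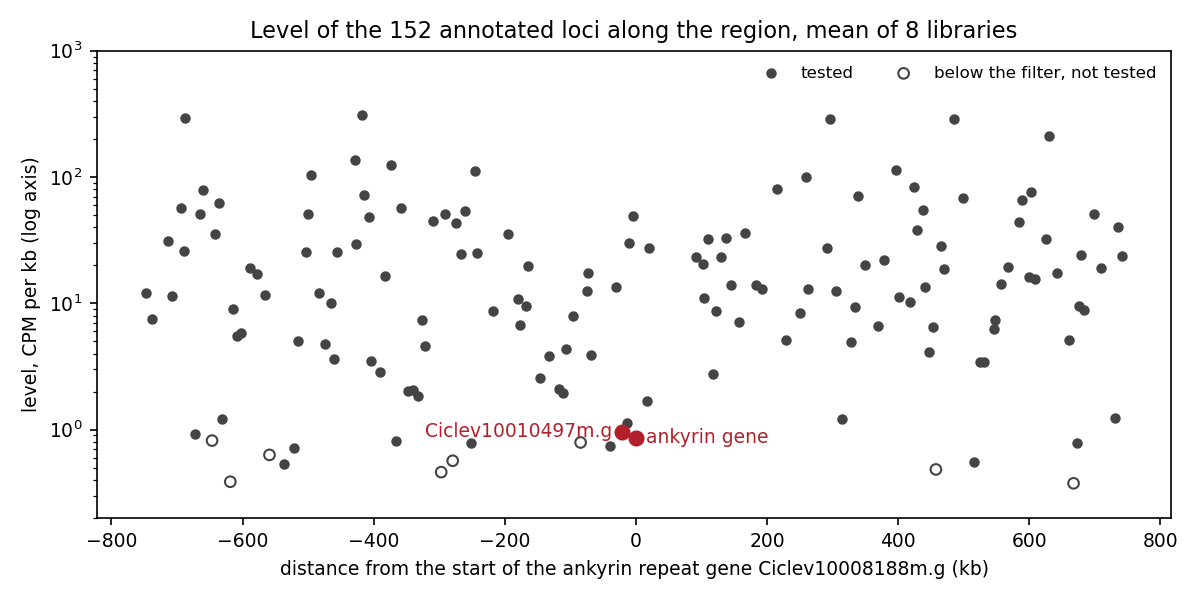
Level of each of the 152 annotated loci (CPM per kb, mean of 8 libraries, log axis) against its distance from the start of the ankyrin repeat gene in kb. Closed points were tested and open points were below the filter. The ankyrin gene (0.86 CPM per kb) and Ciclev10010497m.g (0.962 CPM per kb) are among the lowest, while the highest locus reaches 311.

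The 5 highest levels per length belonged to Ciclev10009025m.g (311 CPM per kb), Ciclev10007483m.g (295), Ciclev10007519m.g (287), Ciclev10007524m.g (286) and a locus that joins Ciclev10008092m.g, Ciclev10008343m.g and Ciclev10008141m.g (213). The sources used here give none of them a function. At Ciclev10007483m.g the PK libraries held 518 to 777 CPM and the CM libraries 782 to 1501 CPM. At Ciclev10007524m.g they held 353 to 599 CPM in PK and 628 to 1465 CPM in CM. The cultivars therefore did not overlap at these 2 loci, and neither was called at either stage. With the replicate block Ciclev10007524m.g was called lower in PK at pre-NEI (log2 fold change -1.64 ± 0.40, adjusted p = 0.0352 against 0.0744 without it, and 0.000423 to 0.434 over the alternatives). None of the 5 was called in any comparison of the edgeR quasi-likelihood test.

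Comparing the cultivars at pre-NEI asked which of these loci already differed before initiation cells were seen. With the edgeR quasi-likelihood test, 5 of the 143 tested loci were called, which required an adjusted p under 0.05 and a difference of at least 1 on the log2 scale in either direction. Of these, 1 was higher and 4 were lower in PK. These 5 are 3.5% of the 143. Over all 18749 tested loci, 3.60% were called, 1.12% higher and 2.48% lower. The share was 2.44% for the 15308 tested loci that named a reference gene, and 1.27% for those of scaffold_1 outside the region. Fitting the replicate number as a block raised the calls in the region to 20, while the share over the table rose to 10.7%. DESeq2 called 22 (13.0% of the table) and the edgeR exact test 14 (8.25%). The median log2 fold change of the 143 loci was -0.20, against 0.00 over all tested loci. By sign alone 84 of the 143 were lower in PK, against 9331 of the 18749. In ovules sampled whole, fewer cells of a type and less RNA per cell cannot be told apart.

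At NEI, 1 of the 143 loci was called, and it was higher in PK, against 1.64% of the whole table, of which 0.496% were higher and 1.14% lower, and 0.849% of all annotated loci tested. The replicate block gave 3 calls (3.33% of the table), DESeq2 8 (5.79%) and the edgeR exact test 5 (4.31%). The median log2 fold change of the 143 loci was -0.16, against 0.02 over all tested loci. At both stages 34 loci were higher and 57 lower in PK by sign alone, and the sign differed between the stages at 52. A difference of at least 1 on the log2 scale with the same sign at both stages was seen at 12 loci.

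A comparison of PK with CM over both stages, added after the data had been seen, used all 4 libraries of each cultivar. It called 10 of the 143 loci, 4 higher and 6 lower in PK, against 6.25% of the whole table, 2.19% higher and 4.06% lower. The share was 3.98% for all annotated loci tested and 1.81% for those of scaffold_1 outside the region, against 6.99% in the region. With the replicate block it called 23, against 11.2%, and with DESeq2 26, against 12.5%. All 4 PK libraries lay above all 4 CM libraries at 7 of the tested loci (6.32% of the table) and below them at 18 (8.41%). Of these 18 loci, 7 lay in the second 250 kb of the window, which held 29 tested loci, and 4 in the third, which held 23. The 5 calls at pre-NEI also lay in these 2 stretches, 2 and 3 respectively, and so did 8 of the 10 calls over both stages. The 2 stretches were singled out after the values had been seen. No like count was made for stretches outside the window, so whether this grouping is unusual was not tested.

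**Figure D2:**
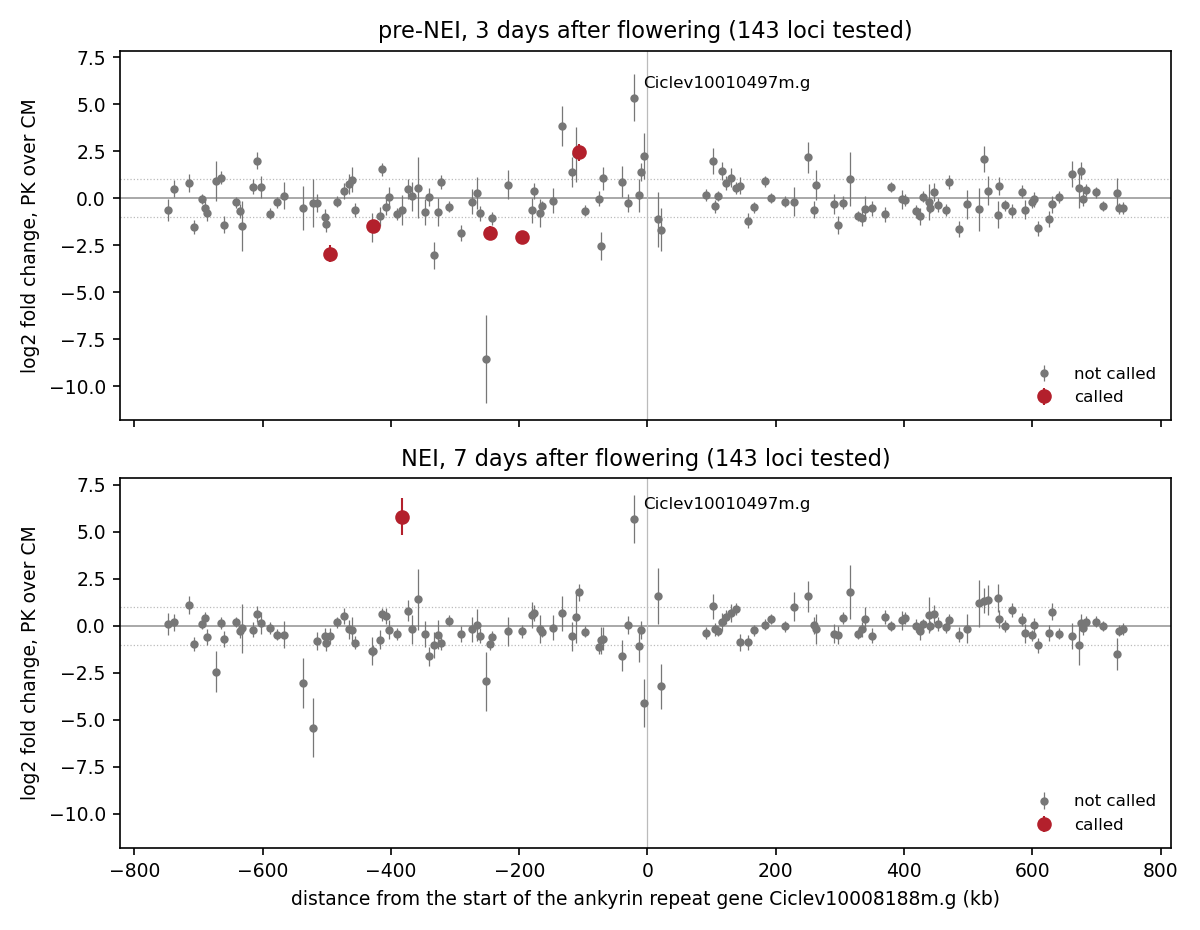
Log2 fold change of PK over CM, with its SE, of the 143 tested loci at pre-NEI (top) and NEI (bottom), against the distance from the start of the ankyrin repeat gene in kb. Red points were called by the edgeR quasi-likelihood test, 5 at pre-NEI and 1 at NEI, and dotted lines mark a log2 fold change of 1 in either direction. The lowest point at pre-NEI, Ciclev10010487m.g, had no count in PK there, so its fitted value is not a bound.

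Ciclev10010497m.g was read in PK and almost unread in CM. It lies on the plus strand at scaffold_1 25480358 to 25482572, ends before the ankyrin gene starts and has a transcript of 1473 bases. It is not annotated in the sources used here. It held 42 and 54 counts in PK at pre-NEI, 58 and 70 in PK at NEI, 0 and 2 in CM at pre-NEI and 2 and 0 in CM at NEI. PK counts were present in every library and CM counts were at the level of single reads, so the cultivars did not overlap. Its level in PK was 1.84 and 2.53 CPM at pre-NEI and 3.34 and 3.41 CPM at NEI, low beside most loci of the region. A count of 0 allows up to 3 counts, which is 0.131 to 0.204 normalised CPM in these libraries.

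The ratio of PK over CM at Ciclev10010497m.g was 44.3 at pre-NEI and 61.2 at NEI. The exact 95% binomial intervals, which cover counting error only, were 11.9 to 371 and 16.6 to 511. The locus passed the filter on low values through PK alone and was named for being near 0 in CM. The tests that follow use those same values, so they are no separate support for the difference. In the edgeR quasi-likelihood test the log2 fold change was 5.35 ± 1.25 (SE) at pre-NEI, with an adjusted p of 0.0647, and 5.69 ± 1.27 at NEI, with an adjusted p of 0.0866, so that neither was called. Both were called with the replicate block, at adjusted p of 0.0289 and 0.0399. Over all alternatives the adjusted p ran from 0.000714 to 0.239 at pre-NEI and from 0.000346 to 0.2 at NEI. Over both stages it was 5.52 ± 0.89 and was called, with an adjusted p of 0.0123 that ran from 5.63e-08 to 0.0454 over the alternatives, and the call held when any 1 of the 8 libraries was left out.

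Fewer than 3 counts in every CM library together with at least 1 CPM in every PK library was found at this locus alone among the 152. Over all loci, 53 met the same limits (0.260%), and 11 of these named a reference gene (0.0691% of annotated loci). The reverse pattern, with PK near 0, was met by 0 of the 152 loci and by 0.658% of the table. Between the stages in PK the locus differed by 0.63 ± 0.93 on the log2 scale, with an adjusted p of 0.995 (0.861 to 1 over the alternatives).

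A second locus higher in PK at both stages was Ciclev10009286m.g, on the minus strand at 25395688 to 25397294. Its level was 7.79 and 8.25 CPM in PK at pre-NEI, 5.35 and 7.89 in PK at NEI, 1.50 and 1.45 in CM at pre-NEI and 1.83 and 2.00 in CM at NEI. All PK libraries were higher than all CM libraries. At pre-NEI it was 5.43-fold higher in PK (log2 fold change 2.44 ± 0.47, edgeR quasi-likelihood adjusted p = 0.0400, 4.82e-05 to 0.264 over the alternatives). At NEI the log2 fold change was 1.79 ± 0.46 and was not called (adjusted p = 0.141, 0.00838 to 0.596 over the alternatives).

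Without the replicate block, the single call at NEI was Ciclev10010773m.g, at 25118933 to 25122577 on the minus strand. With the block it was 1 of the 3 calls (edgeR quasi-likelihood adjusted p = 0.0130). The study named it only as a predicted protein and chose it for a list of shared differences on these same samples. It held 5.16 and 5.06 CPM in PK at pre-NEI and 78.5 and 129 CPM in PK at NEI. In CM it held 1.67 and 14.0 CPM at pre-NEI and 2.11 and 1.58 CPM at NEI. Both PK libraries at NEI stood far above the other 6, while CM at pre-NEI spanned the PK values of that stage. At NEI it was 56.3-fold higher in PK (log2 fold change 5.82 ± 0.98, edgeR quasi-likelihood adjusted p = 0.0393, 4.21e-10 to 0.225 over the alternatives). The call was lost when any 1 of the 4 PK libraries or either CM library of NEI was left out. At pre-NEI the difference was -0.62 ± 0.80 on the log2 scale and turned to 1.64 without CM replicate 2.

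The same locus had the largest fitted interaction of stage and cultivar among the 143. Its log2 fold change from pre-NEI to NEI was 4.34 ± 0.90 in PK and -2.09 ± 0.85 in CM. The edgeR quasi-likelihood test called neither, with adjusted p of 0.995 and 0.510, nor their difference of 6.43 ± 1.23, with an adjusted p of 0.465. DESeq2 called the change in PK (adjusted p = 0.000548) and the difference between the cultivars (adjusted p = 5.04e-05). Over the alternatives the adjusted p ran from 0.000548 to 1 in PK and from 5.04e-05 to 1 for the difference.

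**Figure D3:**
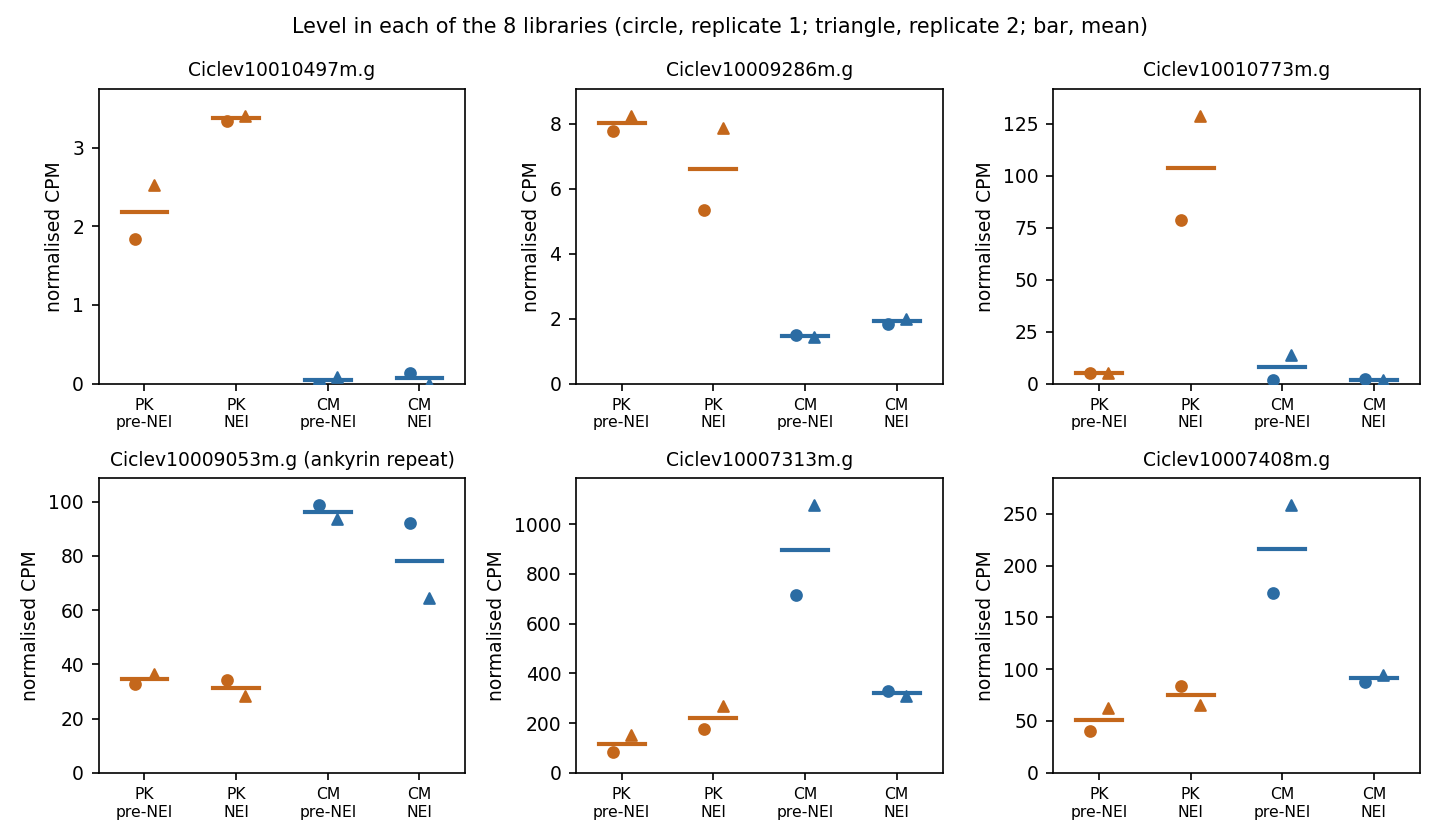
Normalised CPM of 6 loci in each of the 8 libraries, with circles for replicate 1, triangles for replicate 2 and a bar at the mean of each group. Ciclev10010497m.g and Ciclev10009286m.g are higher in every PK library than in any CM library, Ciclev10010773m.g stands out in PK at NEI (78.5 and 129 CPM), and the 3 loci of the lower row are lower in every PK library.

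The 4 loci called lower in PK at pre-NEI lay between 25006718 and 25322034. The largest difference was at Ciclev10007313m.g, which held 82.4 and 150 CPM in PK at pre-NEI, 175 and 268 in PK at NEI, 715 and 1077 in CM at pre-NEI and 329 and 309 in CM at NEI. Its CM values were highest at pre-NEI, and PK lay below CM in every library. It was 7.71-fold lower in PK at pre-NEI (log2 fold change -2.95 ± 0.46, adjusted p = 0.0233, 2.03e-08 to 0.195 over the alternatives), and at NEI the log2 fold change was -0.53 ± 0.43 (adjusted p = 0.711, 0.438 to 0.956). This locus overlaps Ciclev10008817m.g, on the opposite strand, between 25017748 and 25018313 only. The strand setting of the counting is not given in the sources used here, so reads of that stretch cannot be told apart. Ciclev10008817m.g held 18.99 to 24.83 CPM over the 8 libraries. The part of shared reads in the difference at Ciclev10007313m.g was not tested.

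Ciclev10007408m.g, at 25306773 to 25322034, showed a like order of groups. It held 40.3 and 62.5 CPM in PK at pre-NEI, 83.5 and 65.8 in PK at NEI, 174 and 259 in CM at pre-NEI and 88.0 and 94.1 in CM at NEI. The gap between the cultivars was wide at pre-NEI and narrow at NEI. Its log2 fold change was -2.07 ± 0.36 at pre-NEI, where it was called (adjusted p = 0.0283, 1.93e-05 to 0.229 over the alternatives), and -0.29 ± 0.34 at NEI. The difference between these, 1.79 ± 0.49, was not called (adjusted p = 0.467, 0.0892 to 1 over the alternatives).

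Ciclev10008999m.g, at 25255758 to 25259340, held 60.2 and 97.8 CPM in PK and 262 and 304 in CM at pre-NEI, and 132 and 160 in PK and 329 and 237 in CM at NEI. It lay lower in PK in every library, with a log2 fold change of -1.84 ± 0.37 at pre-NEI (adjusted p = 0.0435, 0.000177 to 0.313 over the alternatives) and -0.95 ± 0.36 at NEI, where it was not called. The fourth locus, Ciclev10009053m.g, is described next. Each of the 5 calls at pre-NEI was lost when any 1 of the 4 pre-NEI libraries was left out, and the calls of 3 of them were also lost without libraries of NEI, which were either CM library for Ciclev10009286m.g, CM replicate 2 for Ciclev10007408m.g, and PK replicate 2 or either CM library for Ciclev10008999m.g.

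The region held 2 loci that the study described as ankyrin repeat proteins. Ciclev10009053m.g, at 25074257 to 25081075 on the minus strand, was also listed by the study as a predicted target of a miRNA, a small RNA that guides the cleavage of matching transcripts. It held 32.6 and 36.3 CPM in PK at pre-NEI, 34.3 and 28.1 in PK at NEI, 98.7 and 93.7 in CM at pre-NEI and 92.2 and 64.3 in CM at NEI. The PK values were close to each other at both stages and all lay below the CM values. It was 2.79-fold lower in PK at pre-NEI (log2 fold change -1.48 ± 0.29, adjusted p = 0.0417, 0.000876 to 0.303 over the alternatives). At NEI the log2 fold change was -1.33 ± 0.29, not called (adjusted p = 0.0834) but called with the replicate block (adjusted p = 0.0410), with a range of 0.00862 to 0.386 over the alternatives. Over both stages it was -1.40 ± 0.21 (adjusted p = 0.00898, 1.59e-06 to 0.0645), a call lost without either PK library of pre-NEI.

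The other ankyrin repeat locus, Ciclev10008188m.g at 25501862 to 25504073 on the plus strand, lay in the mapped region and was on the list of shared differences that the study chose on these samples. It was almost silent outside a single library. It held 4 and 2 counts in PK at pre-NEI, 2 and 6 in PK at NEI, 0 and 4 in CM at pre-NEI, and 153 and 13 in CM at NEI. Replicate 1 of CM at NEI, the library that stood apart, was at 10.4 CPM and 17.2 times the highest of the other 7, which was the second CM library of NEI at 0.604 CPM. PK and CM overlapped at pre-NEI. The locus reached 1 CPM in 1 library only, so it was not tested in the main fit. In the edgeR quasi-likelihood fit without the filter, PK over CM was 0.52 ± 1.69 on the log2 scale at pre-NEI (adjusted p = 0.889). At NEI it was -4.68 ± 1.54 (adjusted p = 0.265). The study reported an ankyrin repeat gene of the mapped region, named by its sweet orange model, as lower in polyembryonic ovules at pre-NEI. For this it cited its quantitative RT-PCR of an ankyrin repeat gene. The counts of Ciclev10008188m.g at pre-NEI, 4 and 2 in PK and 0 and 4 in CM, showed no lower level in PK. They are too few to set against that report.

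Its neighbour Ciclev10008781m.g, on the minus strand at 25496990 to 25499119, showed the same library at the top. It held 21.4 and 18.5 CPM in PK at pre-NEI, 12.4 and 30.2 in PK at NEI, 4.44 and 4.04 in CM at pre-NEI and 713 and 24.9 in CM at NEI. Without the single value of 713 CPM, the CM library left at NEI lay within the range of PK. The log2 fold change from pre-NEI to NEI in CM was 6.44 ± 1.45 and was not called by the edgeR quasi-likelihood test (adjusted p = 0.408, 2.18e-06 to 0.873 over the alternatives), and it was 2.61 without replicate 1 of CM at NEI. PK over CM at NEI was -4.12 ± 1.30 (adjusted p = 0.235, 0.00262 to 0.924), and -0.25 without that library.

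On the other side, the locus that joins Ciclev10009767m.g and Ciclev10009756m.g, at 25522237 to 25594327, held 5.06 to 30.1 CPM in the 4 PK libraries. In CM it held 20.0 and 22.0 CPM at pre-NEI and 314 and 20.8 CPM at NEI, where replicate 1 was again the high one, at 10.4 times the highest of the other 7. PK over CM at NEI was -3.21 ± 1.20 on the log2 scale, not called (adjusted p = 0.335, 0.0288 to 0.959 over the alternatives), and -0.22 without replicate 1 of CM. It overlaps several loci without a reference gene, so its reads may be shared with them. Replicate 1 of CM at NEI was at least 3 times higher than every other library at 4 of the 152 loci, and 3 of these are the ankyrin gene and the 2 loci just described. The share was 1.22% over all tested loci of the table, a set that leaves out the ankyrin gene. Whether this grouping is unusual was not tested.

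The remaining neighbours did not share that library. Ciclev10009272m.g, at 25492074 to 25496306, held 52.8 and 39.0 CPM in PK and 23.4 and 11.3 in CM at pre-NEI, and 28.3 and 59.4 in PK and 55.8 and 47.4 in CM at NEI. PK lay above CM at pre-NEI, by 1.40 ± 0.48 on the log2 scale, without a call (adjusted p = 0.150, 0.0752 to 0.552 over the alternatives), and the cultivars overlapped at NEI. Ciclev10008164m.g, at 25518711 to 25521262, was low and scattered, from 0.146 to 4.89 CPM in PK and from 0.371 to 4.61 CPM in CM.

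**Figure D4:**
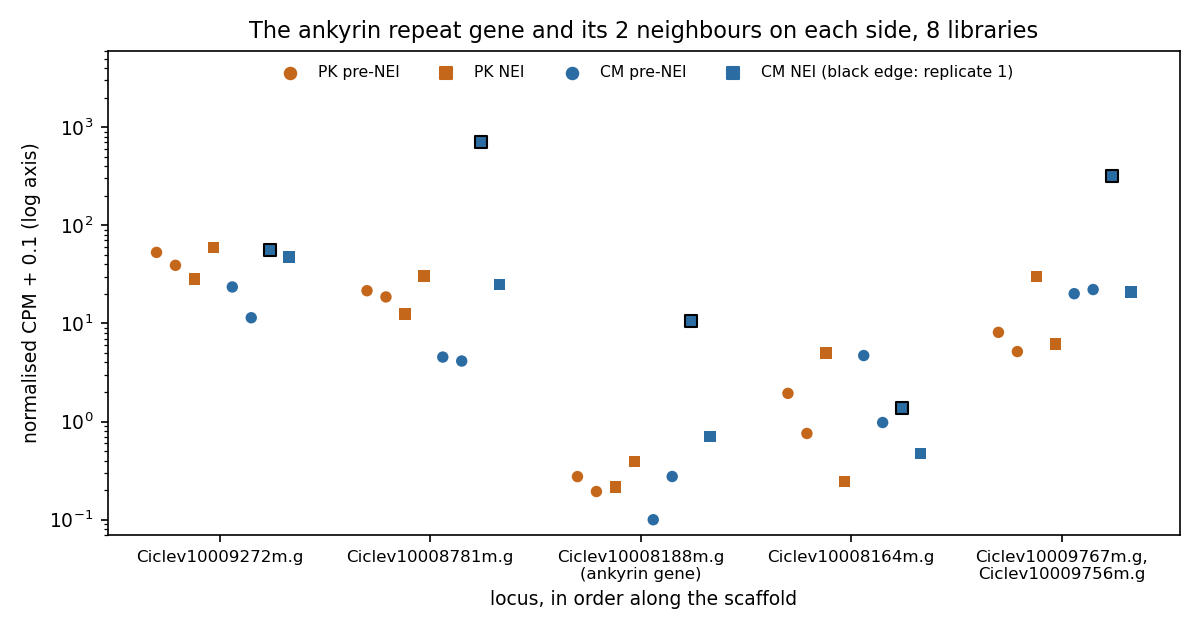
Normalised CPM plus 0.1 (log axis) of the ankyrin repeat gene Ciclev10008188m.g and its 2 neighbours on each side, in order along the scaffold, with 1 point for each of the 8 libraries. The black edge marks replicate 1 of CM at NEI, which is the highest library at the ankyrin gene (10.4 CPM), Ciclev10008781m.g (713 CPM) and the locus of Ciclev10009767m.g and Ciclev10009756m.g (314 CPM).

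A function was given by the study for 8 of the 152 loci, and 5 were listed as predicted miRNA targets. Ciclev10009338m.g, at 25369131 to 25371445, encodes a MADS-box transcription factor with a K-box, a family that specifies floral organs and ovules, and was a predicted target of a miRNA. It held 7.31 and 7.32 CPM in PK at pre-NEI, 1.09 and 9.25 in PK at NEI, 0.611 and 0.395 in CM at pre-NEI and 1.77 and 4.69 in CM at NEI. The cultivars were apart at pre-NEI and overlapped at NEI. PK over CM at pre-NEI was 3.85 ± 1.06 on the log2 scale, not called (adjusted p = 0.0953) but called with the replicate block (adjusted p = 0.0368), with a range of 0.00189 to 0.475 over the alternatives.

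The other 3 predicted targets overlapped between the cultivars. Ciclev10008346m.g encodes an F-box protein, of the kind that selects proteins for breakdown, and held 24.1 to 28.9 CPM in PK and 22.3 to 51.4 in CM. Ciclev10007583m.g, a homologue of MAK10, a yeast subunit of an N-terminal acetyltransferase, held 64.0 to 108 CPM in PK and 86.2 to 162 in CM. The locus of Ciclev10008468m.g, Ciclev10009512m.g and Ciclev10008891m.g, the last of which carries a domain of unknown function, held 229 to 275 CPM in PK and 248 to 292 in CM. None of these 3 was called in any comparison of the edgeR quasi-likelihood test, the replicate block, DESeq2 or the edgeR exact test.

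Ciclev10010235m.g, at 25169202 to 25172488, a hypothetical protein also chosen by the study on these samples, held 0.700 and 0.563 CPM in PK and 3.55 and 6.85 in CM at pre-NEI, and 0.748 and 2.14 in PK and 3.19 and 2.74 in CM at NEI. It lay lower in PK throughout, by -3.03 ± 0.72 on the log2 scale at pre-NEI. That difference was not called (adjusted p = 0.0681) but was called with the replicate block (adjusted p = 0.0334), with a range of 0.00113 to 0.37 over the alternatives.

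Further along the scaffold, Ciclev10010487m.g, at 25249712 to 25252699, held 0 and 0 counts in PK and 9 and 97 counts in CM at pre-NEI. At NEI it held 0 and 7 counts in PK and 11 and 44 in CM. Most of the CM counts of pre-NEI came from replicate 2. It was not called at pre-NEI (adjusted p = 0.107) but was with the replicate block (adjusted p = 0.0225), with a range of 0.00213 to 0.375 over the alternatives. Ciclev10010487m.g passed the filter on low values through CM alone, and it and Ciclev10008008m.g were chosen after their values had been seen. Ciclev10008008m.g, at 24893545 to 24897717, held 14.9 to 21.3 CPM in PK and 4.11 to 13.1 CPM in CM, without overlap, and was 2.00 ± 0.45 higher in PK on the log2 scale at pre-NEI, not called (adjusted p = 0.0579) but called with the replicate block (adjusted p = 0.0201), with a range of 0.00128 to 0.299 over the alternatives.

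The calls over both stages held Ciclev10010497m.g, Ciclev10009286m.g (2.11 ± 0.33), Ciclev10010773m.g (2.60 ± 0.60) and Ciclev10009195m.g (1.07 ± 0.25) higher in PK. Lower in PK were Ciclev10007313m.g (-1.74 ± 0.31), Ciclev10009053m.g, Ciclev10008999m.g (-1.40 ± 0.26), Ciclev10007408m.g (-1.18 ± 0.25), Ciclev10007237m.g (-1.24 ± 0.27) and the locus of Ciclev10008131m.g and Ciclev10008136m.g (-1.32 ± 0.28). The values are log2 fold changes ± SE, and their adjusted p ran from 0.00898 to 0.0484. All but Ciclev10010773m.g had the cultivars apart in every library. At Ciclev10009195m.g the PK libraries held 95.9 to 149 CPM and the CM libraries 34.8 to 88.6 CPM. At Ciclev10007237m.g they held 31.4 to 50.8 CPM in PK and 69.6 to 130 CPM in CM. All of these calls other than that of Ciclev10010497m.g were lost without at least 1 library, and 4 of the 10 stood without replicate 1 of CM at NEI. With the replicate block, Ciclev10009195m.g, Ciclev10007237m.g and the locus of Ciclev10008131m.g and Ciclev10008136m.g were also called at pre-NEI, at adjusted p of 0.0319, 0.0419 and 0.0147 against 0.063, 0.0798 and 0.078 without it (0.00507 to 0.434 over their alternatives). The block likewise added Ciclev10008008m.g, Ciclev10010235m.g, Ciclev10010487m.g, Ciclev10007524m.g and the locus of Ciclev10009767m.g and Ciclev10009756m.g to the calls over both stages, at adjusted p of 0.00903 to 0.0381 against 0.051 to 0.136 without it (0.000553 to 0.435 over their alternatives).

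Between the stages, 0 of the 143 loci were called in PK and 0 in CM, as was the case for the whole table (0%), and 0 for the interaction. At an unadjusted p under 0.05 the edgeR quasi-likelihood test gave 4 loci in PK, 22 in CM and 12 for the interaction, which are 2.80%, 15.4% and 8.39% of the 143, against 3.69%, 9.47% and 8.21% of the table. DESeq2 called 1 locus in PK, 3 in CM and 3 for the interaction, against 0.0800%, 2.02% and 1.31% of the table. The edgeR exact test called 1 in PK, which was Ciclev10010773m.g, and 1 in CM, which was Ciclev10008781m.g, against 0.0320% and 0.747%. The median log2 fold change of NEI over pre-NEI was 0.01 in PK and -0.06 in CM. An absolute difference of at least 1 was fitted at 16 loci in PK and at 32 in CM, which are 11.2% and 22.4% of the 143, against 14.1% and 20.5% of the table.

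**Figure D5:**
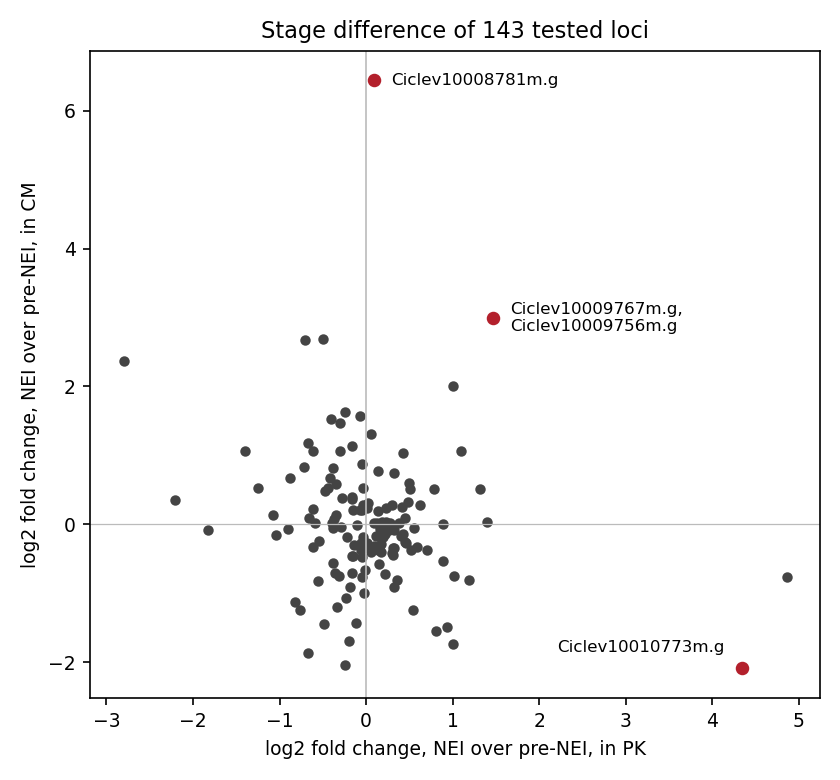
Log2 fold change of NEI over pre-NEI of the 143 tested loci in PK (horizontal axis) and in CM (vertical axis), 1 point per locus. An absolute value of at least 1 is reached by 11.2% of the loci in PK and 22.4% in CM, against 14.1% and 20.5% of the whole table. The 3 red points are Ciclev10010773m.g, high in PK (4.34), and Ciclev10008781m.g and the locus of Ciclev10009767m.g and Ciclev10009756m.g, high in CM (6.44 and 2.99). In the last 2 the highest library is replicate 1 of CM at NEI, and without it Ciclev10008781m.g is at 2.61.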

How the data were processed

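The authors deposited, for each assembled transcript, a whole-number expression value in each library, read here as a count, since the headers give no unit and the methods state that raw read counts were tested, and a pooled FPKM (fragments scaled to length and depth) for each cultivar and stage, which was not used. Per the labels and methods, reads were aligned with TopHat and Bowtie to the clementine genome with transcripts from Cufflinks, and Cuffdiff is named in the processing notes. Versions, the counting tool and the strand setting are not given in the sources used here. Reads were counted again for each isoform, since transcripts below the largest of their locus held a median of 0.817 times its count. A locus was therefore given the counts of its transcript with the largest total. Of the 152 loci, 12 named more than 1 reference gene and 28 overlapped another locus, and their reads may be shared.

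All 8 libraries were fitted as 4 groups with edgeR 4.0.16 (R 4.3.3), TMM and the quasi-likelihood test, on the 18749 loci that reached 1 CPM in 2 or more libraries, with Benjamini-Hochberg adjustment over all of them. Calls needed an adjusted p under 0.05 and a difference of 1 or more on the log2 scale. The 2 libraries per group left 4 residual degrees of freedom, and the SE was taken from the estimate and its F statistic (estimate over root F). Folds against a group without a count used 3 counts per library, and intervals and floors cover counting error only. The test was tried on simulated data first. The shift between replicates 1 and 2 correlated at 0.335 to 0.51 across loci in each of the 6 group pairs. The replicate numbers were therefore taken to pair the libraries and to mark the 2 years, though the sources do not say which year each number stands for. The fit by 4 groups, which gives the calls unless stated otherwise, leaves this pairing out. The block stands beside each result it changes. Alternatives were DESeq2 1.42.0, the edgeR exact test, the block, the 4 libraries of a comparison alone, DESeq2 size factors, no filter, a minimum of 5 CPM, the mean over transcripts and each library left out, where the lone library of a group was assumed to vary like the others.

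The members and lists were chosen with earlier results of these data known. Named were the ankyrin gene, every locus called, the 5 highest levels per length, loci near 0 in 1 cultivar, loci given a function or miRNA by the study, and 2 neighbours of the ankyrin gene on each side. Groups and markers by gene description could not be formed, as no descriptions were used here.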

Additional observations from a re-analysis of the deposited data

How the results depend on the processing

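The number of loci called among the 143 depended on the test more than on scaling or filters. At pre-NEI the 5 calls became 22 with DESeq2, 14 with the edgeR exact test, 20 with the replicate block and 12 with the 4 libraries of the comparison alone, and 0 to 6 with 1 library left out, where the lowest count came without any 1 of the 4 pre-NEI libraries. At NEI the 1 call became 8, 5, 3 and 0 under the same settings and 0 to 1 with 1 library left out. Between stages the 0 calls became 1 in PK with DESeq2 and 1 with the exact test, 3 and 1 in CM, and 3 for the interaction with DESeq2, and stayed at 0 with each library left out. Over both stages the 10 calls became 26 with DESeq2, 23 with the block and 1 to 8 with 1 library left out, lowest without either PK library of pre-NEI. The cause was not tested. Shares of the whole table are given above for DESeq2, the exact test and the block. No share was counted for the 4 libraries alone or with a library left out. Those counts are therefore no result about the region. DESeq2 size factors moved the median log2 fold change by at most 0.04.

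Directions turned in 3 cases. With 1 library left out, PK over CM at Ciclev10010773m.g ran from -1.45 to 1.64 at pre-NEI and its stage difference in CM from -2.92 to 0.162, both turning without CM pre-NEI replicate 2, and PK over CM at Ciclev10009272m.g ran from -0.864 to 0.215 at NEI, turning without PK NEI replicate 1. The block changed no call of a named locus other than those given in the text. With 2 libraries per group, loci near the filter, and the 9 below it, are measured too coarsely for differences to be read.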

Other observations

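Of the 34 loci of the window that named no reference gene, 3 separated the cultivars almost completely. They were chosen after their values had been seen, and how common such loci are elsewhere among those without a reference gene was not counted. None of the 3 met the limits used above for near silence. Each lay under 1 CPM in a library of the cultivar that held the counts. In replicate 1 of CM at NEI, XLOC_002033 and XLOC_002024 were each at 0.883 CPM. In replicate 1 of PK at pre-NEI, XLOC_002040 was at 0.656 CPM. The shares of the whole table at those limits, 0.260% and 0.658%, are therefore no background for these loci. XLOC_002033, at scaffold_1 25447664 to 25448605, held 0 counts in all 4 PK libraries and 29, 58, 13 and 38 counts in the CM libraries, which is at least 15.3-fold higher in CM at pre-NEI and at least 8.31-fold higher at NEI when 3 counts per library are set for PK. XLOC_002024, at 24759681 to 24760121, held 0, 0, 2 and 0 counts in PK and 23, 35, 13 and 26 in CM, and it overlaps the annotated locus of Ciclev10010355m.g. XLOC_002040 went the other way, with 15, 23, 24 and 17 counts in PK and 1, 2, 0 and 0 in CM, and lies within the span of the locus of Ciclev10009767m.g and Ciclev10009756m.g. The part that sequence differences between PK and the clementine genome play in these counts was not tested. For PK over CM at pre-NEI, the edgeR quasi-likelihood adjusted p was 0.0414 for XLOC_002033, 0.0523 for XLOC_002024 and 0.102 for XLOC_002040. At NEI it was 0.0791, 0.218 and 0.0577 in the same order.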
